A study of Mus musculus with 20 samples.

Results

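Levels of 9 epithelial transcripts were followed in 20 mouse RNA sequencing libraries: the simple keratins Krt7, Krt8, Krt18, Krt19 and Krt20, and the epithelial genes Muc4, Gabrp, Arhgap36 and Sprr2f. They are 9 of 25700 genes counted, and all 9 were among the 15430 genes that passed a filter on low counts. The set was chosen by measured values, namely strong induction in oxalate libraries, so the levels of oxalate against control libraries are given as a description, with no test, and support nothing. The libraries form 4 groups of 5, named by the sample titles. Control libraries came from control mice left untreated, and Control_late libraries from control mice on alkali therapy. Oxalate libraries came from oxalate mice left untreated, and Oxalate_late libraries from oxalate mice on alkali therapy. The series gives the alkali as bicarbonate and the disease as crystal nephropathy, in which crystals damage the kidney. The labels give no tissue, strain, sex, age, dose, diet or duration, leave the word "late" unexplained, and do not say that each library is a separate mouse, so the p-values below measure the spread between these libraries.

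Keratins are the intermediate filament proteins of epithelia, and they polymerise only as pairs of a type II and a type I chain. Krt7 and Krt8 are type II keratins and Krt18, Krt19 and Krt20 are type I keratins. In the kidney, simple keratins are known from the collecting duct and other distal epithelia, and keratins are known to rise in injured tubules. The lining of the renal pelvis, the urothelium, carries all 5 of these keratins too. Muc4 is a large membrane mucin and a partner of the receptor ERBB2, Gabrp is the pi subunit of the GABA-A receptor, a chloride channel, Arhgap36 is an intracellular protein that inhibits protein kinase A and activates Hedgehog signalling, and Sprr2f is a small proline-rich protein of the cornified envelope type. The name luminal epithelial genes therefore covers proteins of different places in the cell. Which cells held these transcripts was not measured. In bulk RNA, more cells of a type and more RNA per cell cannot be told apart.

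The promoter windows of 4 members are shown because the members differ in range, and these 4 span it: Krt8 and Krt18, a keratin pair on chromosome 15 whose changes with alkali differed in call, Krt20, the keratin with the largest differences, and Gabrp, which had among the largest ranges of all members. Each window runs from 250 bases before to 50 bases after a transcription start in RefSeq (GRCm38.p6) and is written 5′ to 3′ on the gene's strand. Krt8 is at chr15:102004293-102004592 on the minus strand, Krt18 at chr15:102027966-102028265 on the plus strand, Krt20 at chr11:99438104-99438403 on the minus strand and Gabrp at chr11:33578908-33579207 on the minus strand. Capitals mark matches on either strand to any of 6 motifs: the TATA box TATAAA, the CCAAT box CCAAT, the GC box GGGCGG, the AP-1 motif TGANTCA, the STAT motif TTCNNNGAA and the TEAD motif GGAATG.
Krt8: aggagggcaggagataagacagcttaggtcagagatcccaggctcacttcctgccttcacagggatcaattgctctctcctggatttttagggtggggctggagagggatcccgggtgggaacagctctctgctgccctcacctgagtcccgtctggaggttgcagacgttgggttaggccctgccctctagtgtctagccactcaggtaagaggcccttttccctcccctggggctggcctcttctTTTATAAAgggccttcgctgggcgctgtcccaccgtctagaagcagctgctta
Krt18: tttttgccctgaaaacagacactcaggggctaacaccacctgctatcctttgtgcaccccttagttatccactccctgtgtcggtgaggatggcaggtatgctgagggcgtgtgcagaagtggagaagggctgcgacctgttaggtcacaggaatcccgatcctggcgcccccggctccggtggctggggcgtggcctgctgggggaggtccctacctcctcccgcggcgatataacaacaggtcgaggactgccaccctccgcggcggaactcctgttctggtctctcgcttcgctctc
Krt20: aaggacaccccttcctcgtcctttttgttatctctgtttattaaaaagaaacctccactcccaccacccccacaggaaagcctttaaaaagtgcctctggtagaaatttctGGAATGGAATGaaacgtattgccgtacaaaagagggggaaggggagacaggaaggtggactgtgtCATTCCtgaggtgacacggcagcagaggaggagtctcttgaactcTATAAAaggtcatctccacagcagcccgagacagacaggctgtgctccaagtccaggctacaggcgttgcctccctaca
Gabrp: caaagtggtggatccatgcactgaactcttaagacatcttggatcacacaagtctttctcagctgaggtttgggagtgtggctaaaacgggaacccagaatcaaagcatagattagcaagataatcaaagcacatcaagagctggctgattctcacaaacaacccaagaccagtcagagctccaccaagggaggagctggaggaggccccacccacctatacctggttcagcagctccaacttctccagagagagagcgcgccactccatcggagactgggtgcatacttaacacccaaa
The Krt20 window held a TATA box 29 bases before the start and 3 matches to GGAATG, at -139, -134 and -74, of which the first and second overlap by 1 base. The Krt8 window held TATAAA on both strands in an overlapping stretch at -3 and -1, next to the start that RefSeq gives. The Krt18 and Gabrp windows held none of the 6 motifs. Of the other members, Sprr2f had a TATA box at -29, 2 CCAAT boxes and 1 AP-1 motif, and Muc4 had a TATA box at -36 and 1 GGAATG. Krt7 had 4 GC boxes, and the first of 2 windows of Arhgap36 had 1 CCAAT box overlapping 1 GGAATG. Krt19 is named only. Of all 32851 windows of this length, 13.6% held TATAAA, 37.4% CCAAT, 35.7% GGGCGG, 7.81% TGANTCA, 8.30% TTCNNNGAA and 14.7% GGAATG. Of the 8 members with a window, 4 held TATAAA, 3 GGAATG, 2 CCAAT, 1 GGGCGG, 1 TGANTCA and 0 TTCNNNGAA, and no motif was in all 8. A match is a description of letters and not a binding site.

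In oxalate libraries without alkali, every member had a mean level above that of controls. The fitted difference was smallest for Krt8, at 1.40-fold, and largest for Arhgap36. Krt7 and Krt8, already abundant in controls, were higher by 0.72 ± 0.12 and 0.49 ± 0.12 on the log2 scale (fitted change ± SE), and the type I keratins Krt18, Krt19 and Krt20 by 1.56 ± 0.26, 2.72 ± 0.54 and 4.35 ± 0.60. Muc4, Gabrp, Arhgap36 and Sprr2f, which were near the limit of detection in controls, were higher by 4.08 ± 0.78, 7.40 ± 0.65, 7.99 ± 0.73 and 4.87 ± 0.83. Single control libraries moved 3 of these values by more than 1.5-fold: without control 26 Krt19 had 3.59 and Muc4 7.03, and without control 35 Arhgap36 had 9.001. All 9 passed the call rule of an adjusted p under 0.05 in the higher direction, a rule that 26.4% of all 15430 genes passed in that direction and 23.1% in the lower one. In 8 members, all but Krt8, the 5 oxalate libraries lay above all 5 control libraries, which 18.5% of all genes did. The members' median log2 change was 4.08 against -0.000433 over all genes tested. Since this contrast chose the members, nothing is read from these counts.

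**Figure D1:**
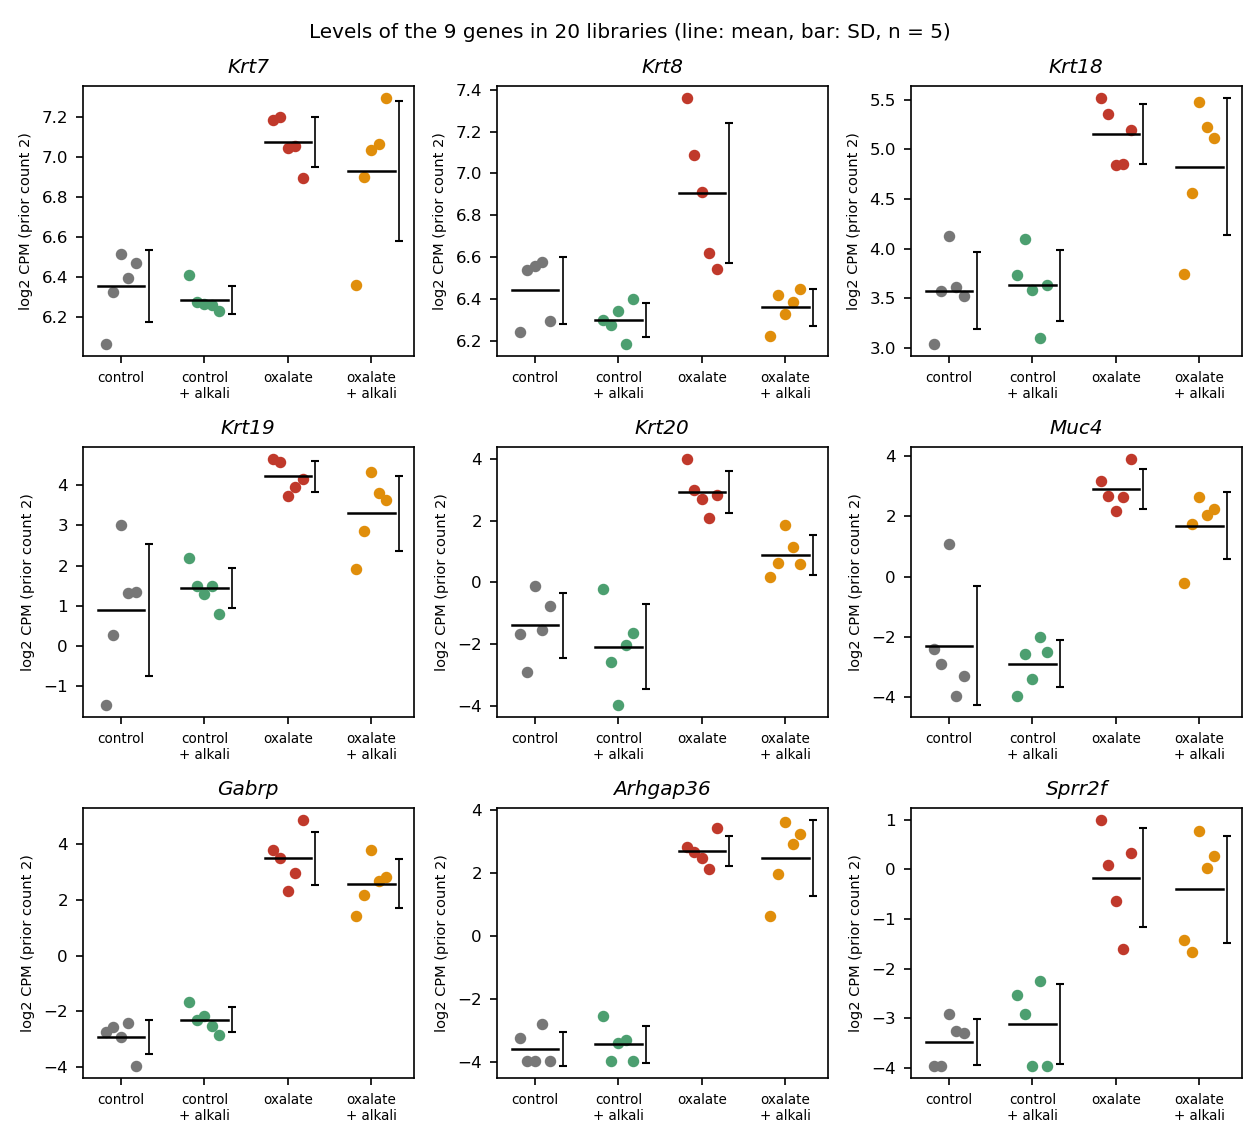
Level of each of the 9 genes in each of the 20 libraries, as log2 CPM (the reads of a gene scaled to a common library size, with a prior count of 2), by group (control, control with alkali, oxalate, oxalate with alkali). Points are libraries, lines are group means and bars are SDs of 5 libraries, and each panel has its own scale. All 5 oxalate libraries lie above all control libraries in 8 of the 9 panels, and in the Krt8 and Krt20 panels all 5 oxalate libraries with alkali lie below all 5 without it.

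Krt8, the chief type II keratin of simple epithelia, had 164, 136, 120.4, 98.5 and 93.4 CPM in the oxalate libraries without alkali. With alkali the oxalate libraries had 74.8, 85.5, 80.4, 83.7 and 87.2 CPM, all below the lowest untreated oxalate library. Untreated controls ran from 75.8 to 95.5 CPM and alkali controls from 72.7 to 84.3 CPM. The treated oxalate libraries thus lay in the range of the control groups, while 1 untreated oxalate library, number 40, also fell within the untreated control range. Between the alkali groups the fitted log2 difference of oxalate and control was 0.06 ± 0.12, and Krt8 was the 1 member not called there. On total-count scaling, which puts the median log2 difference of all genes at 0.30 (no alkali) and 0.24 (alkali), the Krt8 differences became 0.78 and 0.28.

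Members were chosen for strong induction in oxalate libraries, which can favour a lower level in the treated oxalate group. Krt8 was lower in oxalate libraries with alkali than in those without. Its level fell 1.49-fold, a log2 change of -0.57 ± 0.12 (95% interval -0.82 to -0.33, adjusted p 0.0125, edgeR quasi-likelihood test with Benjamini-Hochberg adjustment over all 15430 genes). The call held when any 1 of the 10 oxalate libraries was left out, with changes from -0.65 to -0.45 and adjusted p from 0.00743 to 0.0390. It was lost when the model used the 10 oxalate libraries alone, where the change was -0.56 with an adjusted p of 0.141. Krt8 shares 26.9% of its 50-base stretches with the pseudogene Krt8-ps, which has no row among the counted genes, so its counts are uncertain to the extent that reads were placed there or dropped.

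Krt20, a type I keratin of intestinal and urothelial surface cells, was scarce in controls, at 0.254, 0.0713, 0.856, 0.284 and 0.527 CPM without alkali and 0 to 0.799 CPM with it. Untreated oxalate libraries had 15.8, 7.92, 6.43, 4.20 and 7.07 CPM. Treated oxalate libraries had 1.07, 1.49, 3.54, 2.15 and 1.43 CPM. The 3 levels did not overlap: every treated oxalate library was above every control library and below every untreated oxalate library.

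Krt20 was also lower with alkali in oxalate libraries, by 4.28-fold, a direction that the choice of members can favour as well. The log2 change was -2.10 ± 0.51 (95% interval -3.17 to -1.03, adjusted p 0.0267 by edgeR's quasi-likelihood test). This call depended on single libraries more than that of Krt8. Leaving out oxalate library 12, which had the highest Krt20 level, gave -1.73 with an adjusted p of 0.105. The adjusted p was 0.0503 without oxalate library 3, and 0.050004, 0.0786 and 0.0634 without treated libraries 2, 30 and 8, so in 5 of 10 such fits Krt20 was not called. With the 10 oxalate libraries alone the adjusted p was 0.0605.

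Of the 9 members, these 2 keratins were called lower with alkali in oxalate libraries and 0 were called higher, where 2.33% of all genes were called lower and 1.76% higher. Krt8 and Krt20 were also the 2 members whose treated libraries all lay below the untreated ones, as did 1.61% of all genes. The other 7 members did not pass the test. Their log2 changes were -0.12 ± 0.12 for Krt7 (95% interval -0.37 to 0.14), -0.24 ± 0.25 for Krt18 (-0.76 to 0.28), -0.75 ± 0.49 for Krt19 (-1.78 to 0.29) and -1.11 ± 0.65 for Muc4 (-2.47 to 0.26). Gabrp had -0.97 ± 0.41 (-1.81 to -0.12, adjusted p 0.180), Arhgap36 0.02 ± 0.40 (-0.82 to 0.86) and Sprr2f -0.22 ± 0.53 (-1.32 to 0.89), by the same edgeR test. For Krt18, Krt19, Muc4, Arhgap36 and Sprr2f these intervals still hold changes of more than 0.5 in size, so the libraries do not show that the levels were alike.

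**Figure D2:**
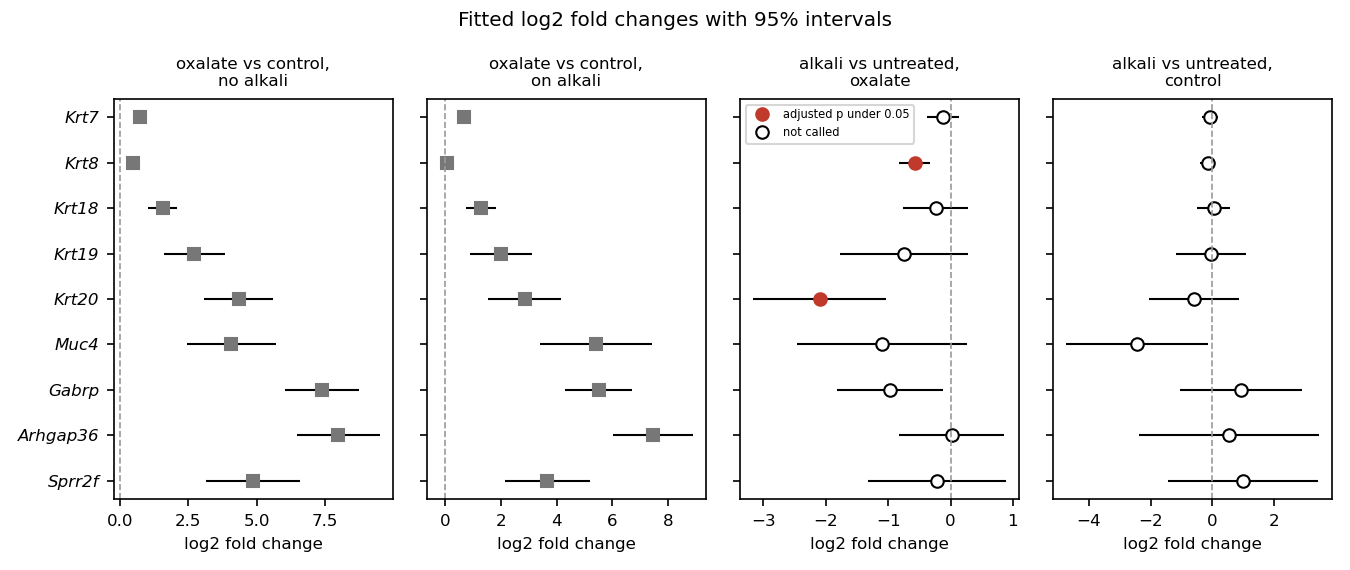
Fitted log2 fold changes of the 9 genes in 4 comparisons, with 95% intervals. Grey squares mark the comparisons of oxalate with control that chose the genes and carry no test, filled circles are called at an adjusted p under 0.05 and open circles are not. With alkali in oxalate libraries, Krt8 (-0.57) and Krt20 (-2.10) are the filled circles, and in control libraries every circle is open.

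On alkali, the oxalate libraries still stood above the alkali controls for most members. The log2 differences were 0.68 ± 0.12 for Krt7, 1.28 ± 0.26 for Krt18, 2.02 ± 0.53 for Krt19 and 2.85 ± 0.62 for Krt20. For Muc4, Gabrp, Arhgap36 and Sprr2f they were 5.41 ± 0.97, 5.51 ± 0.58, 7.47 ± 0.69 and 3.67 ± 0.74. Without alkali control 1 the difference became 3.83 for Krt20 and 8.34 for Arhgap36. Here 8 of 9 members were called higher, against 23.4% of all genes called higher and 17.1% lower, and 5 members (Krt20, Muc4, Gabrp, Arhgap36 and Sprr2f) did not overlap between the groups, against 10.8% of all genes. The median over the members was 2.85 against 0.02 over all genes. The choice of the members covers this contrast as well, so these values are a description.

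Krt7 varied least of the members as a ratio in untreated oxalate libraries, where the highest was 1.24 times the lowest, at 119 to 147 CPM, against 66.9 to 91.6 CPM in untreated controls. Treated oxalate libraries had 82.0, 119, 131, 134 and 157 CPM, so that 1 of them, library 2, lay in the range of controls and 4 did not. Alkali controls had 74.9 to 85.0 CPM. While Krt8 fell with alkali, its fellow type II keratin Krt7 had a difference of -0.12 whose interval reaches -0.37.

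Krt18, the usual partner of Krt8, had 45.6, 40.9, 28.7, 28.8 and 36.6 CPM in untreated oxalate libraries and 13.4, 23.6, 44.6, 37.3 and 34.5 CPM in treated ones. Controls ran from 8.17 to 17.4 CPM and alkali controls from 8.54 to 17.0 CPM. Only treated library 2 overlapped the controls. Krt19, a type I keratin without a tail domain found in ducts, had 24.9, 24.0, 13.3, 15.4 and 17.7 CPM without alkali and 3.72, 7.15, 19.8, 13.9 and 12.3 CPM with it. Its controls ran from 0.296 to 7.97 CPM, the highest being library 26, and its alkali controls from 1.67 to 4.47 CPM.

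The mix of keratin transcripts differed between groups, measured as CPM per kilobase of exon so that genes of different length can be compared. Krt8 made up 67.3% ± 4.12 (SD, n = 5) of the 5 keratins in untreated controls, 65.2% ± 2.83 in alkali controls, 51.3% ± 3.47 in untreated oxalate libraries and 49.0% ± 8.74 in treated ones. Krt18 took 12.6% ± 1.86, 14.1% ± 2.84, 20.8% ± 2.44 and 23.3% ± 5.86 in the same order. The Krt7 share was 17.6% in untreated controls and 16.1% in untreated oxalate libraries. The Krt19 share was 2.14%, 2.44%, 8.42% and 6.57%, and that of Krt20 was 0.303%, 0.223%, 3.39% and 1.11%. These shares depend on the length used. Per coding length Krt8 took 45.3%, 43.6%, 35.5% and 31.6%, Krt18 7.21%, 8.05%, 12.2% and 12.8%, and Krt7 45.6%, 46.3%, 42.9% and 49.8%, in the same order. The Krt8 share was lower and the Krt18 share higher in both oxalate groups than in both control groups with either length.

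Type II transcripts exceeded type I transcripts 5.98 ± 1.63 times in untreated controls and 5.10 ± 1.04 times in alkali controls. In untreated oxalate libraries the ratio was 2.10 ± 0.365, and in treated ones 2.47 ± 1.11 (SD, n = 5 each). Untreated oxalate libraries ran from 1.67 to 2.63, below all controls, whose lowest value was 3.62. Treated library 2, at 4.19, lay among the controls, and the other treated libraries ran from 1.37 to 2.88. Per coding length the 4 ratios were 10.7, 9.18, 3.70 and 4.85, because the exons of Krt7 add up to 7049 bases and its coding sequence to 1371. The groups kept their order with either length. Krt8 over Krt18 alone, which does not involve Krt7, was 5.46 ± 1.05, 4.78 ± 1.07, 2.51 ± 0.435 and 2.32 ± 1.11. These mixes follow from levels that chose the members and carry no test.

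**Figure D3:**
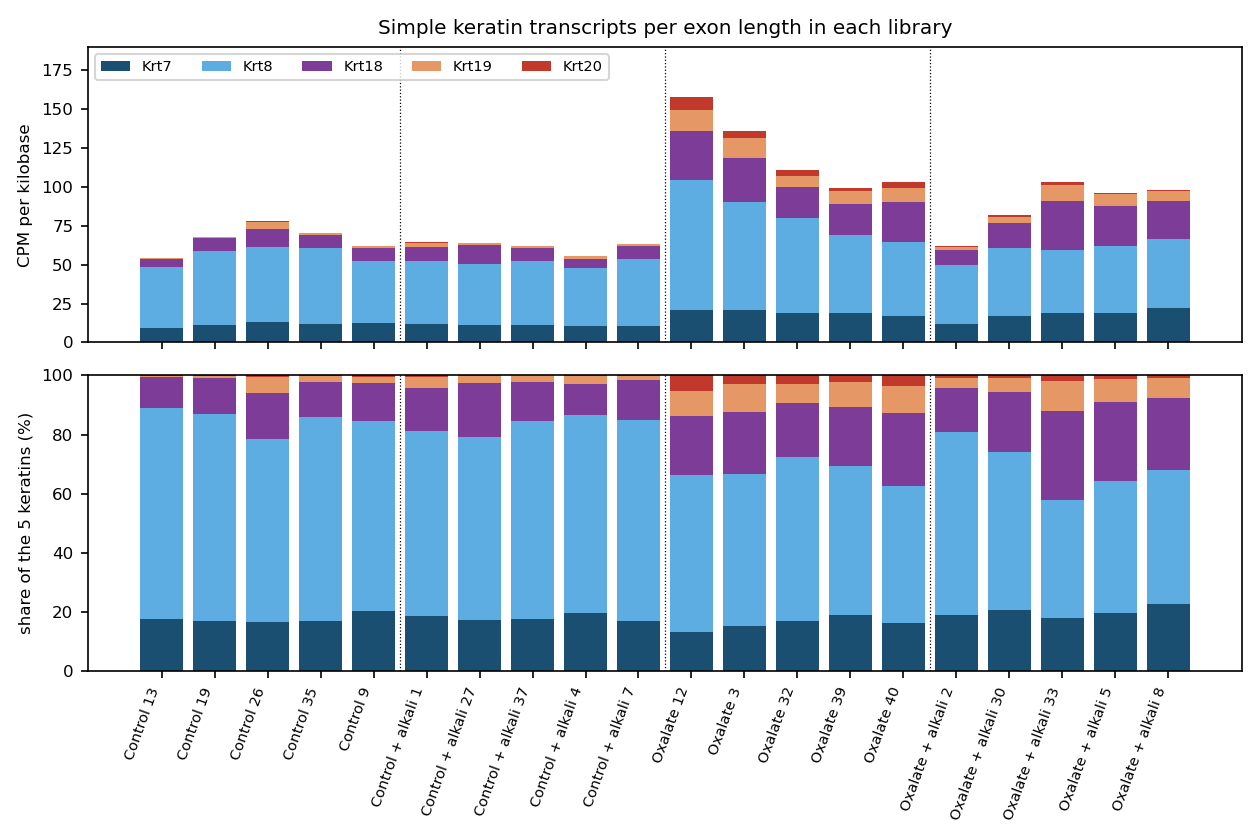
Transcripts of the 5 keratins in each library, in CPM per kilobase of exon (upper bars, stacked) and as a share of their sum in percent (lower bars). In controls Krt8 and Krt7 fill most of each bar, while in oxalate libraries Krt18, Krt19 and Krt20 take more, except in treated library 2, whose type II to type I ratio of 4.19 lies in the control range.

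Muc4, the membrane mucin, had 8.88, 6.36, 4.45, 6.12 and 14.8 CPM in untreated oxalate libraries. Treated ones had 0.792, 3.28, 6.12, 4.02 and 4.64 CPM, and alkali controls 0 to 0.183 CPM. In untreated controls library 26 alone had 2.05 CPM, or 60 of the 66 Muc4 reads of that group, and the others had 0 to 0.127 CPM. Without library 26 the log2 difference of oxalate and control became 7.03 in place of 4.08. Muc4 overlaps Muc20, a counted mucin gene on the opposite strand, and the strand setting of the counting is not given, so reads from the overlapping stretch could have been assigned to either gene. Control library 35 and alkali control library 1 had 210 and 241 reads of Muc20 and 0 of Muc4. Muc20 had its highest level, 32.8 CPM, in the same library 26.

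Gabrp, the GABA-A receptor subunit, had 13.9, 11.4, 4.95, 7.74 and 29.1 CPM in untreated oxalate libraries and 2.62, 4.42, 14.0, 6.33 and 7.07 CPM in treated ones. Controls held 10 reads in all and alkali controls 21, at 0 to 0.254 CPM. Pooled over each group, Gabrp was 191-fold higher in oxalate than in control libraries without alkali (95% counting interval 104 to 398) and 46.0-fold with it (29.9 to 74.6). These intervals cover counting error only, not the spread between libraries. Untreated library 40 was 5.88 times the lowest of its group and treated library 33 was 5.34 times the lowest of its own, against a fitted difference of 1.95-fold between the groups.

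Without treated library 33, the Gabrp change with alkali in oxalate libraries was -1.39 with an adjusted p of 0.0408 in edgeR's quasi-likelihood test, against -0.97 and 0.180 with all libraries. It was -1.39 (adjusted p 0.0461) without the 2 libraries richest in uroplakin, control 26 and treated oxalate 33. It was -1.60 (adjusted p 0.0204) without the 6 libraries in which Adipoq, a fat-cell gene, exceeded 1 CPM, a fit in which Muc4 was called too, at -1.49 (adjusted p 0.0428). Library 33 thus decided whether Gabrp passed the threshold.

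Arhgap36, the protein kinase A inhibitor, was close to absent from controls, with 3 reads in 5 untreated and 5 reads in 5 alkali control libraries. It had 7.07, 6.32, 5.56, 4.33 and 10.7 CPM in untreated oxalate libraries and 1.48, 3.84, 12.4, 7.47 and 9.36 CPM in treated ones, which cover a wider range on both sides. The pooled ratio of oxalate to control was 312 (95% counting interval 107 to 1515) without alkali and 197 (84.3 to 609) with it. With so few control reads, the fitted log2 changes of 7.99 and 7.47 depend on the prior count of the model. Of the 4 strongly induced genes, its mean differed least with alkali in oxalate libraries, 6.80 ± 2.41 and 6.91 ± 4.34 CPM (SD, n = 5), and the sign of the fitted change turned with the scaling: 0.02 with the TMM scaling used throughout and -0.01 with total counts.

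Sprr2f stayed low in all groups. Untreated oxalate libraries had 1.92, 0.999, 0.582, 0.265 and 1.19 CPM and treated ones 0.310, 0.252, 1.64, 0.951 and 1.15 CPM, from 8 to 69 reads a library. Controls held 4 reads without alkali and 9 with it. The pooled ratio was 33.9 (95% counting interval 13.02 to 126) without alkali and 13.4 (6.89 to 29.96) with it. Only 0.714% of its 50-base stretches are shared with its neighbour in the family, Sprr2e.

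Alkali in control mice gave no called difference in any member. By edgeR's quasi-likelihood test 0 of 9 members and 0% of all 15430 genes were called, with 1 member and 389 genes at an unadjusted p under 0.05 and a smallest adjusted p of 0.0642. DESeq2 called 3 genes higher and 0 lower, limma-voom called 0, and neither called a member. The 1 member was Muc4, at -2.44 ± 1.10 (adjusted p 1 by edgeR), which became 0.51 without control library 26. The other members lay between -0.61 (Krt20) and 0.98 (Sprr2f). Gabrp, Arhgap36 and Sprr2f had 10, 3 and 4 reads in untreated controls and 21, 5 and 9 in alkali controls. They passed the low-count filter only through the oxalate libraries, so this test could hardly call them. Their 95% intervals were -1.04 to 2.89, -2.38 to 3.47 and -1.44 to 3.41, which leaves their change in controls undecided.

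The interaction, which asks whether the oxalate difference itself changed with alkali, called 0 of 9 members and 0% of all genes in edgeR's quasi-likelihood test. At an unadjusted p under 0.05 there were 1 member and 1429 genes, and the smallest adjusted p was 0.0907. DESeq2 called 12 genes higher and 14 lower and limma-voom 0, none of them a member. The 1 member was Krt8, with -0.43 ± 0.17 (95% interval -0.78 to -0.07, adjusted p 0.478). Krt20 had -1.49 ± 0.88 (-3.32 to 0.33). For Gabrp, Arhgap36 and Sprr2f the few control reads limit this test as well. The lower Krt8 and Krt20 levels with alkali in oxalate mice are therefore not shown to differ from the alkali difference in control mice. All 3 tested comparisons share libraries with the contrast that chose the members.

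Members differed in which library was highest. Untreated oxalate library 12 was highest for 5 members (Krt8, Krt18, Krt19, Krt20 and Sprr2f), library 40 for Muc4, Gabrp and Arhgap36, and library 3 for Krt7. Library 40 was at the same time the lowest for Krt7 and Krt8. Among treated libraries, number 33 was highest for 7 members, all but Krt7 and Krt8, and number 2 was lowest for 8, all but Sprr2f.

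Markers of other cells moved with these libraries. Library 12, highest for 5 members, had the highest sum of 17 tubular injury genes in its group, 5966 CPM of a range from 3497 CPM up. It had 137 CPM of the injury marker Havcr1 against 26.8 to 36.8 CPM in the other 4. Library 40 came close in the injury sum, at 5873.5 CPM, and had more of the injury gene Lcn2, 95.1 CPM against 83.1 CPM in library 12. Library 40 had the highest summed level of 14 macrophage and monocyte genes in its group, 3418 CPM of a range from 910 CPM up, and the lowest sum of 16 proximal tubule genes, 20262 CPM. Treated library 2 had the lowest macrophage sum of its group, 351 CPM of up to 1122 CPM, the lowest injury sum, 1826 CPM, and the highest proximal tubule sum, 57939 CPM. Treated library 33, highest for 7 members, had the highest injury sum of its group, 4957 CPM, the highest macrophage sum and the lowest proximal tubule sum, 25947 CPM. The sum of 14 principal cell and collecting duct genes was lowest of its group in untreated library 40, at 776 CPM. Among treated libraries this sum was lowest in library 2, at 733 CPM, and highest in library 8, at 1262 CPM, the library highest for Krt7 and Krt8. Untreated library 39, with the highest such sum of its group, 970 CPM, was lowest for Krt20, Arhgap36 and Sprr2f. No macrophage or injury gene was at 0 in any library. Control macrophage sums ran from 160 to 221 CPM and alkali control sums from 164 to 228 CPM. The part of these cells in the members' levels was not tested.

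Urothelial genes needed a separate look, since urothelium itself makes these keratins. The summed level of 14 urothelial genes ran from 4.40 to 61.5 CPM in untreated controls, 8.401 to 28.7 CPM in alkali controls, 20.8 to 51.7 CPM in untreated oxalate libraries and 8.99 to 101 CPM in treated ones. Control 26 (61.5 CPM) and treated oxalate 33 (101 CPM) led their groups, and both held Adipoq as well, at 29.7 and 35.4 CPM. Oxalate library 12, highest for Krt20 at 15.8 CPM, had the lowest urothelial sum of its group, 20.8 CPM, above the untreated control median of 16.3 CPM. It had 0.167 CPM of the uroplakin Upk1b and 1.31 CPM of the uroplakin Upk1a. Treated library 8 had 0.0521 CPM of Upk1b, 1.30 CPM of Upk1a and 0 of the basal keratin Krt5. Beside these it had 34.5 CPM of Krt18 and 9.36 CPM of Arhgap36. Treated oxalate 33 was at the same time highest of its group for 7 members. Control 26 was highest of the untreated controls for Krt7, Krt18, Krt19, Krt20 and Muc4, and for Sprr2f with 2 reads. The part of urothelium in the members' levels was not tested.

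**Figure D4:**
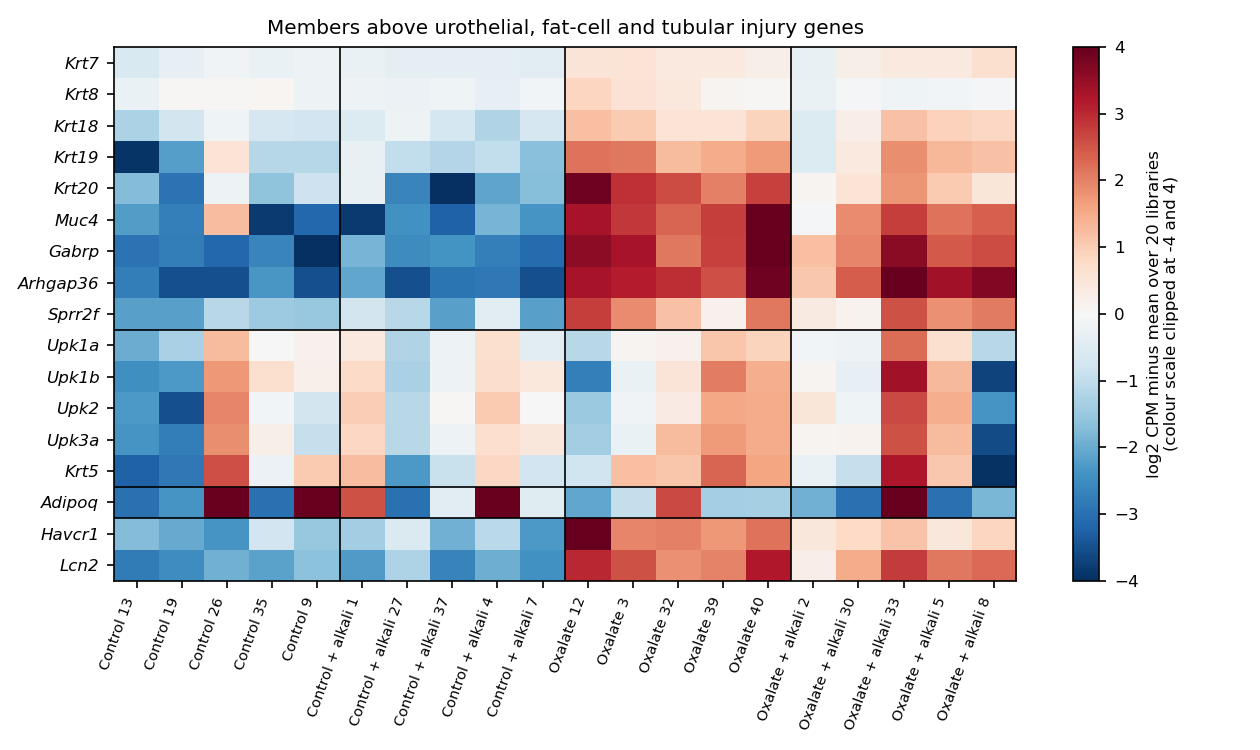
Log2 CPM of the 9 members (top rows) and of 4 uroplakin genes, Krt5, Adipoq, Havcr1 and Lcn2 (lower rows) in each library, as the difference from each gene's mean over 20 libraries, with the colours clipped at -4 and 4. The members are high in the oxalate libraries, while the uroplakin genes are highest in single libraries such as control 26 and treated oxalate 33 and low in treated library 8.

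Among other keratins, 7 of 36 listed genes were abundant enough to test, and 2 were higher and 1 lower in oxalate libraries without alkali (median 0.51), where 26.4% of all genes were called higher and 23.1% lower. The epidermal and basal keratins Krt14 and Krt15 were the 2 that rose, by 2.11 ± 0.85 and 2.22 ± 0.87, from untreated control means of 0.126 and 0.613 CPM, and Krt10 fell by 0.49 ± 0.15 on the log2 scale (adjusted p 0.0460, 0.0394 and 0.0110 by edgeR). On alkali, where the shares over all genes were 23.4% and 17.1%, 0 were higher and 1, Krt10, was lower. Alkali itself called 0 of the 7 in oxalate libraries, with 0 at an unadjusted p under 0.05, beside 20.5% of all genes.

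A list of genes for proteins that bind keratins or anchor them at desmosomes came next. The list also held Vim, Trp63 and the integrin genes Itga6 and Itgb4. Of 19 tested, 10 were higher and 3 lower in oxalate libraries without alkali (median 0.49 against -0.000433 over all genes), and 9 and 1 on alkali. The shares of all genes were 26.4% higher and 23.1% lower without alkali, and 23.4% and 17.1% on it. Plec, the plectin that links filaments to other structures, rose in both states, by 0.59 ± 0.17 on alkali, and the desmosomal cadherin Dsg2 by 0.89 ± 0.12 without it and 0.55 ± 0.11 on it. Vim, the intermediate filament protein of mesenchymal and dedifferentiated cells, rose by 2.73 ± 0.29 without alkali. With alkali in oxalate libraries Vim fell by 1.01 ± 0.28 on the log2 scale (adjusted p 0.0434 by edgeR), the 1 called gene of the 19. No desmosomal or keratin-binding gene of the list was called there.

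Of 29 apical surface and epithelial identity genes tested, 19 were higher and 4 lower in oxalate libraries without alkali (median 0.59), where 26.4% of all genes were higher and 23.1% lower. On alkali 19 were higher and 2 lower (median 0.69), where 23.4% of all genes were higher and 17.1% lower. The claudin Cldn7 rose by 1.32 ± 0.17 in oxalate libraries without alkali, the transcription factor Elf3 by 1.68 ± 0.21 and the tetraspanin Cd9 by 1.27 ± 0.17. Their changes with alkali in oxalate libraries were -0.57 ± 0.17, -0.67 ± 0.20 and -0.56 ± 0.17, which missed the threshold at adjusted p 0.0586, 0.0623 and 0.0657 (edgeR). Ceacam1, on the same list, went the other way. It had -0.45 ± 0.09 in oxalate libraries without alkali and 0.29 ± 0.09 with alkali in oxalate libraries (adjusted p 0.0853 by edgeR). Alkali called 0 of the 29 in oxalate libraries (median 0.018). At an unadjusted p under 0.05 there were 9, beside 20.5% of all genes. Erbb2, the partner of Muc4, had -0.05 ± 0.08 in oxalate against control libraries without alkali and 0.18 ± 0.08 with alkali in oxalate libraries (adjusted p 0.208 by edgeR), and was called in neither.

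Around Sprr2f, 9 of 25 listed small proline-rich and cornified envelope genes could be tested, with 3 higher and 1 lower in oxalate libraries without alkali and 1 and 1 on alkali. Over all genes 26.4% were higher and 23.1% lower without alkali and 23.4% and 17.1% on it, so 3 of 9 is near the background. Sprr2g, its family member, rose by 3.58 ± 0.66. Cstb, the protease inhibitor cystatin B, rose by 0.73 ± 0.10, and it fell by 0.52 ± 0.10 on the log2 scale with alkali in oxalate libraries (adjusted p 0.0061 by edgeR), the 1 call among the 9. S100a9, a calcium-binding protein of neutrophils, rose by 1.71 ± 0.64 and had -1.88 ± 0.63 with alkali (adjusted p 0.0922).

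Around Gabrp, 8 of 18 listed GABA-A subunits could be tested, and 2 were higher and 1 lower in oxalate libraries without alkali, near the 26.4% and 23.1% of all genes. Gabra3 rose by 1.51 ± 0.22 on the log2 scale, beside 7.40 for Gabrp. On alkali 3 were higher and 0 lower, beside 23.4% and 17.1% of all genes. Alkali in oxalate libraries called 0, with 1 at an unadjusted p under 0.05, beside 20.5% of all genes.

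Around Arhgap36, all 20 listed Hedgehog and protein kinase A genes were tested, and 6 were higher and 5 lower without alkali (median 0.03) and 5 and 1 with it. The shares without alkali are near those of all genes, 26.4% higher and 23.1% lower, and with it the shares of all genes were 23.4% and 17.1%. Gli1, the pathway's transcription factor and its common readout, rose by 2.25 ± 0.51 without alkali and 1.72 ± 0.52 with it. The catalytic subunit Prkaca fell by 0.24 ± 0.06 on the log2 scale and the receptor Smo by 0.26 ± 0.09. Alkali called 0 of the 20 in oxalate libraries, with 3 at an unadjusted p under 0.05, beside 20.5% of all genes. Gli1 there had -1.02 ± 0.47 (adjusted p 0.230 by edgeR).

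Genes that mark the cells that could hold these transcripts are read against the shares of all genes called, 26.4% higher and 23.1% lower without alkali, 23.4% and 17.1% on alkali, and 1.76% and 2.33% for alkali in oxalate libraries. Tubular injury genes were higher in 17 of 17 cases without alkali (median 2.01) and 14 on alkali, and 9 fell and 0 rose with alkali in oxalate libraries. Among those 9, Sox9 and Cd44, both known from repairing tubule cells, fell by 2.02 ± 0.41 and 1.38 ± 0.29 on the log2 scale (adjusted p 0.0110 and 0.0135 by edgeR). Macrophage and monocyte genes were higher in 14 of 14 cases without alkali and 13 with it, and 4 fell with alkali in oxalate libraries. Proximal tubule genes were lower in 15 of 16 cases without alkali and 11 with it, and alkali called 0 of them in oxalate libraries. At an unadjusted p under 0.05 there were 6 of them, beside 20.5% of all genes.

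Of 14 principal cell and collecting duct genes, 7 were higher and 1 lower both without and with alkali, at a median of 0.45 in each case, beside 26.4% and 23.1% of all genes without alkali and 23.4% and 17.1% with it. Urothelial genes had 2 of 12 higher without alkali, Krt14 and Krt15 named above, and 0 on alkali, and the papilla list had 2 higher and 2 lower of 10. Mesothelial genes had 2 higher and 1 lower of 7, among them the retinoic acid enzyme Aldh1a2 at 3.44 ± 0.28, and fat-cell genes 0 higher and 1 lower of 5. The papilla and mesothelial counts are near the shares of all genes. Alkali in oxalate libraries called 1 gene higher each on the principal cell and papilla lists, where 1.76% of all genes were higher. It called 0 on the urothelial, mesothelial and fat-cell lists, with 0 at an unadjusted p under 0.05, beside 20.5% of all genes. In control libraries and in the interaction, 0 genes of any of the 14 lists were called by edgeR. At an unadjusted p under 0.05 there were 0 to 3 and 0 to 12 genes a list, beside 2.52% and 9.26% of all genes.

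Patterns were compared as the root mean square difference of centred log2 CPM over the 20 libraries, a description in which all points share group and depth. Gabrp and Arhgap36 were each other's closest of all 15430 genes tested, at 0.58. Both were near the limit of detection in every control library and had the largest oxalate differences of the members. Their closeness thus follows in part from the strong induction that chose them. For the other members the closest fellow member was farther than many genes outside the set. Krt7 lay closest to St14, the membrane protease matriptase, and Cst3, cystatin C, both at 0.12, and Krt8 to Ppp1r14b at 0.12 and Ttll3 at 0.16. Krt18 lay closest to the claudin Cldn4 at 0.19.

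Members with larger ranges had looser matches. Krt19 lay closest to Oit1 at 0.56 and S100a6 at 0.61, and Krt20 to Serpina10 at 0.80 and the hyaluronan receptor Cd44 at 0.84. Muc4 lay closest to Ltbp2 at 0.77 and Fcrls at 0.94, and Sprr2f to Col1a1 and Smoc2, both at 0.53. Outside the set, Gabrp lay closest to Lyz2 at 0.75 and Trem2 at 0.76, and Arhgap36 to Trem2 at 0.96 and Fcrls at 0.97. Lyz2, lysozyme, and the receptor Trem2 are known from macrophages. The summed macrophage marker level in untreated oxalate libraries was highest in library 40, as were Gabrp, Arhgap36 and Muc4. The distance depends largely on the size of the oxalate difference, which chose the members. For Lyz2 that difference was 5.52 ± 0.45 without alkali. A link of these members with macrophages was not tested.

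The members sit on 5 chromosomes in the GRCm38 annotation (GENCODE M21). Krt7 (chr15:101411043-101430313), Krt8 (chr15:101996698-102004482) and Krt18 (chr15:102028180-102032027) are on chromosome 15, and Krt19 (chr11:100140810-100148665), Krt20 (chr11:99428403-99438150) and Gabrp (chr11:33550781-33578959) on chromosome 11. Muc4 is at chr16:32735886-32782391, Arhgap36 at chrX:49463945-49500244 and Sprr2f at chr3:92365187-92366442. All are protein-coding genes.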

How the data were processed

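The libraries were stranded and polyA-selected (TruSeq), per the labels' protocols. Each deposited file gives raw counts by Ensembl mouse gene, which the authors made with bcl2fastq 2.19, Trimmomatic, STAR 2.7.1 and featureCounts, per the submitters' processing notes. These notes name a human build, GRCh38.p5, which does not match mouse genes and was not resolved, and the strand setting of the counting is not given in the sources used here. Symbols come from GENCODE M21, which matched 25587 of 25700 identifiers, and promoter windows from RefSeq, which held 8 of the 9 members. Library totals ran from 25547840 to 39550689 counts.

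Counts were filtered with filterByExpr (minimum count 10), scaled by TMM and fitted in 1 model of 4 group means over 20 libraries with edgeR 4.0.16 (robust quasi-likelihood) in R 4.3.3. The common biological coefficient of variation was 0.200. DESeq2 1.42.0 and limma 3.58.1 were alternatives. Calls needed a p under 0.05 after Benjamini-Hochberg adjustment over all 15430 genes. CPM values use the TMM-scaled library sizes. The members, the gene lists and the tests were chosen with earlier results of these data known. Besides the 9 members, the rule named up to 4 genes a list by p with alkali in oxalate libraries, up to 2 by p with alkali in control libraries, and the 2 closest genes per member whose average log2 CPM was 0 or more. The uroplakin genes, Havcr1, Lcn2, Muc20, Krt8-ps and Sprr2e were named after their values were seen. A few others under this rule are not reported here. Replicates were left out in turn, and other scalings, filters, lengths and library subsets were tried. The code was tested on simulated data.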

Additional observations from a re-analysis of the deposited data

Results flagged for a closer look

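The Krt7 level of alkali control library 1, 85.0 CPM, stood apart from the other 4 of its group, with a gap to the nearest that was 0.744 of the group's whole range, above the limit of 0.71 for 5 values. Of 36 groups of 5 libraries looked at, this was 1 such case, and chance gives about 1 in 20.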

How the results depend on the processing

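No paired analysis was possible because the replicate numbers in the titles all differ between the groups. Calls in oxalate against control libraries chose the members and are not read for stability. With alkali in oxalate libraries 2 were called, and 2 again with total-count scaling, no filter, DESeq2 and limma-voom. The count was 0 with only the 10 libraries compared, 4 without the libraries with Adipoq above 1 CPM, 3 without the 2 libraries richest in uroplakin, and 1 to 3 when libraries were left out in turn. These subsets by Adipoq and uroplakin were chosen after seeing the data. Without the Adipoq libraries the difference of oxalate and control without alkali was 5.39 for Krt20 and 5.98 for Sprr2f, against 4.35 and 4.87. The cause of these differences was not tested, and the fits on subsets hold fewer libraries.

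The ratio of type II to type I keratins was 10.7, 9.18, 3.70 and 4.85 per coding length in untreated controls, alkali controls, untreated oxalate and treated oxalate libraries. Signs turned only for changes that were not called. For alkali in oxalate libraries, Arhgap36 had -0.011 with total counts, -0.25 with limma-voom, -0.35 without the Adipoq libraries and -0.30 without the uroplakin libraries. For alkali in control libraries, Krt19 had 0.53 with limma-voom, 0.80 without the Adipoq libraries and 0.82 without the uroplakin libraries, Muc4 0.27 and 0.51 in these 2 subsets, and Arhgap36 -1.51 without the Adipoq libraries. In the interaction, Muc4 had -0.49 with limma-voom and -1.76 and -1.85 in the 2 subsets, and Arhgap36 1.16 without the Adipoq libraries.

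Leaving out 1 library turned signs within these ranges: in oxalate libraries with alkali, Arhgap36 -0.30 to 0.28, Krt7 -0.21 to 0.0018 and Sprr2f -0.57 to 0.16; in control libraries with alkali, Arhgap36 -0.33 to 1.55, Krt18 -0.084 to 0.21, Krt19 -0.33 to 0.82 and Muc4 -2.89 to 0.51; in the interaction, Arhgap36 -1.53 to 0.35, Krt7 -0.14 to 0.078 and Muc4 -1.61 to 1.78.

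Over all genes, total-count scaling called 7498 higher and 1308 lower in oxalate without alkali, against 4067 and 3563, and 5645 and 953 on alkali, against 3604 and 2633. For alkali in oxalate libraries 271 genes were called higher and 359 lower. This became 15 and 14 with only the 10 libraries, 95 and 93 without oxalate library 12, 486 and 717 with DESeq2, and 465 and 793 without the Adipoq libraries. Depth limits Arhgap36, Gabrp and Sprr2f in controls, where few reads set the fold.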
